A study of Homo sapiens with 120 samples.

Results

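The genes described here act in the repair of alkylated DNA and in base excision repair: MGMT, MPG, ALKBH1, ALKBH2, ALKBH3, APEX1, XRCC1, POLB, PARP1 and LIG3. They are 10 of the 19775 genes with a probe set naming a single gene symbol, and each is represented by that probe set with the highest mean over all arrays. All 10 were among the 14023 genes bright enough to be tested. They were measured on 120 Affymetrix arrays of RNA from TK6, an established human B lymphoblastoid line widely used in genotoxicity testing. Cells received formaldehyde (FA) at 50, 100 or 200 µM, methyl methanesulfonate (MMS) at 80, 160 or 320 µM, ethyl methanesulfonate (EMS) at 1, 2 or 4 mM, colcemid (COL) or vincristine (VCR), each for 4 h or 24 h. The labels give colcemid and vincristine as 1, 2 and 4 µg/ml, while leading zeros in the titles leave a lost decimal point possible, so these are named the lowest, middle and highest labelled dose. Untreated arrays were run for every chemical at 4 h and at 24 h, so there are 40 groups of 3 arrays, numbered experiments 1 to 3. No agent other than these 5 and no genetic change is named for any group.

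Alkylating agents attach methyl or ethyl groups to DNA bases. MGMT takes the group from the oxygen of guanine onto itself and is used up by the reaction, and the AlkB enzymes oxidize methyl groups off ring nitrogens. In base excision repair a glycosylase such as MPG cuts out the damaged base, APEX1 nicks the strand at the empty site, POLB fills the gap, and LIG3 seals it on the scaffold protein XRCC1, while PARP1 marks the strand break. MMS reacts mainly with ring nitrogens, EMS also with oxygens, and formaldehyde crosslinks DNA and protein. Colcemid and vincristine bind tubulin and disturb chromosome segregation. TK6 has been described as lacking MGMT activity.

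The promoters shown are those of MGMT, whose signal lay near the limit for dim genes, of ALKBH3 and XRCC1, which were called only higher, and of APEX1 and PARP1, which were called only lower. They are from RefSeq, build GRCh38.p14, and run from 250 bases before to 50 bases after the start of the gene. The windows are chr10:129466991-129467290 on the plus strand for MGMT, chr11:43880581-43880880 (plus) for ALKBH3, chr19:43575478-43575777 (minus) for XRCC1, chr14:20454976-20455275 (plus) for APEX1 and chr1:226408044-226408343 (minus) for PARP1. Capitals mark, on either strand, the GC box GGGCGG, the CCAAT box CCAAT, the E-box CACGTG and the ETS core CCGGAAG, and no marked matches overlap in these 5 windows.
MGMT: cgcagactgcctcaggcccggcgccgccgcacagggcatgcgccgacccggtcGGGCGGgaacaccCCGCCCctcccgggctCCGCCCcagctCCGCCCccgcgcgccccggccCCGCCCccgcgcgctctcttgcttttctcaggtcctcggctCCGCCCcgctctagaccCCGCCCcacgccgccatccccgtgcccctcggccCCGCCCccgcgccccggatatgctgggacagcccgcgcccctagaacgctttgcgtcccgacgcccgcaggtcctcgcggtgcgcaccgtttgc
ALKBH3: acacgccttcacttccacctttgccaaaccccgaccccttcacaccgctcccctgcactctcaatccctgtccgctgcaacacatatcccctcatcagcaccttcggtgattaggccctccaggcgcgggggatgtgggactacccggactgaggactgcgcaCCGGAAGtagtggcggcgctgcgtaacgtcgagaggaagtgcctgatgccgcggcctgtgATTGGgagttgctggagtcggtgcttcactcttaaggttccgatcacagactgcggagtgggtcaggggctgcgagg
XRCC1: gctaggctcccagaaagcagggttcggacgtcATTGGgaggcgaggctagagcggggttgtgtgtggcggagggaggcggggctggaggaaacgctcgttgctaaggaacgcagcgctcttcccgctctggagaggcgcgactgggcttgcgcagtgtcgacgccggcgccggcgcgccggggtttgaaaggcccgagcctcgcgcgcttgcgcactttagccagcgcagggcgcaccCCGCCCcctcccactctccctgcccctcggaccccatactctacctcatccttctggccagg
APEX1: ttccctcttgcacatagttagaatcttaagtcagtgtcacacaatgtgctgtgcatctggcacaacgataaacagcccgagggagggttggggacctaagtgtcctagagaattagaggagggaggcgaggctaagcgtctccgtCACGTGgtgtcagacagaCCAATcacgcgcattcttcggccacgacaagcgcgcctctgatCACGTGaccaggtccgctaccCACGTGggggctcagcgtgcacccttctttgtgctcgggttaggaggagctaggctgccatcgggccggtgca
PARP1: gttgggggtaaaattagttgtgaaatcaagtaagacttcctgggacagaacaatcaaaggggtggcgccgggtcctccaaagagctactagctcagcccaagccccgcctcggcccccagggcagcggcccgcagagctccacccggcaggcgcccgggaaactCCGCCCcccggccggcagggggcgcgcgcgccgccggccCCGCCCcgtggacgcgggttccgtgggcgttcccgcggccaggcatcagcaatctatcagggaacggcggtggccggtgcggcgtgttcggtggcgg
The MGMT window held 8 GC boxes and 45 CpG pairs. Of the 35116 promoters of this length, 45.0% held a GC box, 0.812% held at least 8, and 96.5% had fewer CpG pairs than MGMT, against a median of 14. PARP1 had 2 GC boxes. APEX1 had 3 E-boxes, where 7.26% of promoters held an E-box and 0.094% at least 3. ALKBH3 had 1 ETS core (10.3% of promoters) and 1 CCAAT box (34.6%). It also had 3 matches to TGANNNNGC, a pattern looser than the core of the antioxidant response element. Of promoters, 41.8% held at least 1 such match, and 2.01% at least 3. The search left the base after TGA open, and none of the 3 matches had a C there, as that core has. They are not read as antioxidant response elements. Of the 9 members matched, MPG, XRCC1 and LIG3 held an NRF1 site, searched by its general form on both strands (5.78%). The cyclic AMP response element TGACGTCA (1.85%), the E2F sites TTTGGCGC and TTTCCCGC (2.27% for either) and a p53 element searched by its general form (6.63%) had no match in these windows. The matches are descriptions of letters and were not tested as binding sites. POLB was not matched.

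The arrays' medians lay between 6.13 and 6.24 on the log2 scale. The 7 B cell markers read here were all bright, with untreated means of 8.69 to 13.8. Among the markers of other cells, the untreated mean reached the limit of 6.18, the median over probe sets, for 4 of 8 of T and NK cells, 3 of 7 of monocytes and granulocytes, 4 of 6 of epithelium and 2 of 6 of fibroblasts. Among the dim ones CD3G, CD14 and EPCAM lay at 5.24, 5.15 and 3.58. The brightest in each list, in the same order, were NKG7 (8.001), S100A9 (7.603), KRT8 (8.548) and COL1A1 (8.36). The list mean over groups ran from 5.95 to 6.41 for T and NK cells, 5.68 to 6.34 for monocytes and granulocytes, 6.23 to 6.64 for epithelium and 5.997 to 6.254 for fibroblasts. CDKN1A, a cell cycle inhibitor switched on by p53, was called higher in every dose comparison at 24 h except that of 50 µM FA. At 4 h it was called higher at every dose of FA, MMS and EMS. It was called at no colcemid or vincristine dose at 4 h, with changes of -0.06 to 0.03. RNA quality was read from the ACTB control probe sets, as the 3' minus the 5' log2 signal, which is given beside the results it moved with. The untreated 4 h FA array of experiment 3 stood apart in this measure. The FA dose, time and class calls that were lost or gained without it are given with the results. Precision is limited by having 3 arrays a group.

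MGMT had a low signal in every group. On the 30 untreated arrays its probe set ran from 5.73 to 6.32 with a median of 5.96 (mean 5.97 ± 0.14 SD), and 2 of the 30 reached the limit of 6.18. Over all 120 arrays 12 reached it, whereas each of the other 9 members reached it on all 120. The untreated mean was above that of 45.1% of probe sets on the array. At 24 h the untreated means of the sets ran from 5.79 for MMS to 6.17 for FA, and at 4 h from 5.88 for FA to 6.03 for EMS. Whether MGMT lay above background was not measured by these values, and its changes are read with that limit.

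The untreated arrays give the other members' own ranges, which are not compared between genes because probe sets differ in brightness. MPG ran from 8.77 to 9.19 over the 30 arrays (median 8.99), ALKBH1 from 8.78 to 9.22 (9.04), ALKBH2 from 8.96 to 9.43 (9.18) and ALKBH3 from 8.92 to 9.51 (9.25). APEX1 ran from 12.4 to 12.7 (12.6), XRCC1 from 7.51 to 8.19 (7.96), POLB from 9.27 to 9.74 (9.49), PARP1 from 11.13 to 11.497 (11.35) and LIG3 from 7.99 to 8.86 (8.49). Within an untreated group the SD was smallest for PARP1 (0.027) and largest for ALKBH3 (0.126).

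**Figure D1:**
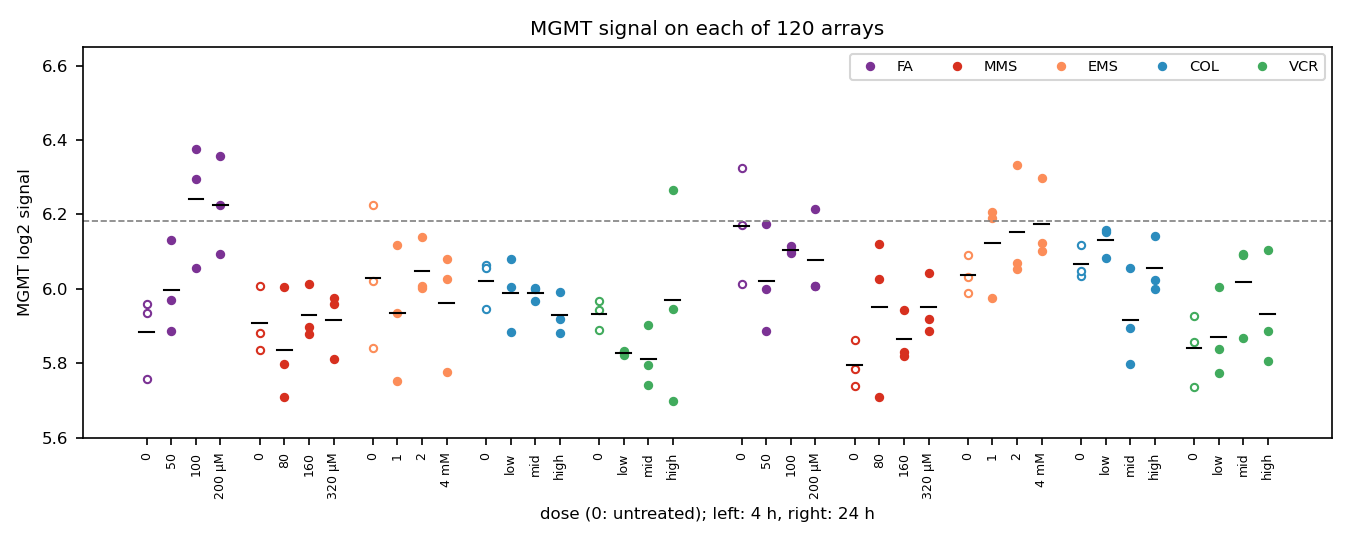
Log2 signal of MGMT on each of the 120 arrays, by chemical set, dose and time, with 1 point per array and the limit for dim genes (6.18) as a line. Most points lie below the line, and 12 arrays reach it.

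MGMT was called in 2 of 30 dose comparisons, both with FA at 4 h. The signals in experiments 1 to 3 were 5.76, 5.93 and 5.96 without treatment, 6.38, 6.06 and 6.30 at 100 µM, and 6.22, 6.36 and 6.09 at 200 µM. Both treated groups lay above the untreated arrays without overlap. The change was 0.36 ± 0.10 (SE, n = 3 arrays per group; limma adjusted p = 0.00566) at 100 µM and 0.34 ± 0.10 (adjusted p = 0.00622) at 200 µM. Without experiment 1 neither was called (0.23, adjusted p = 0.19, and 0.28, adjusted p = 0.079). Neither alkylating agent gave a call for MGMT in these fits: the change at 24 h was 0.16 (95% interval -0.03 to 0.34) at 320 µM MMS and 0.14 (-0.08 to 0.36) at 4 mM EMS. With 4 h of 320 µM MMS it was 0.01 (-0.18 to 0.19) and of 4 mM EMS -0.07 (-0.29 to 0.15). After a repeated quantile normalization the first of these was called (0.21, adjusted p = 0.033), and without experiment 2 so was 80 µM MMS at 24 h (0.27, adjusted p = 0.039, against 0.16 and 0.21). With experiment as a block MGMT was also called at the middle colcemid dose at 24 h (-0.15, adjusted p = 0.0438, against 0.0576 without the block).

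Over all members, doses and times there were 300 changes, each a treated minus an untreated group of the same set and time, and limma called 69 of them: 32 higher and 37 lower. Of these, 56 were at 24 h and 13 at 4 h, and 1 was at least 2-fold (ALKBH3 at 320 µM MMS). The same direction in all 3 experiments was found for 67. Direction was counted on the arrays that gave the calls, so it is not a separate test. POLB was called in 12 of its 30 comparisons and PARP1 in 11, followed by ALKBH3, APEX1 and LIG3 with 8 each. POLB, ALKBH3, XRCC1 and MGMT were called only higher and PARP1, APEX1, LIG3 and ALKBH2 only lower, while MPG and ALKBH1 were called both ways. In bulk RNA, less RNA per cell and fewer cells with that RNA cannot be told apart.

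The number of members called followed the share of all genes called. With FA at 4 h, 0, 4 and 7 of the 10 members were called at 50, 100 and 200 µM, where 0.82%, 40.7% and 53.8% of tested genes were called, and at 24 h 0, 0 and 6 members, where 0%, 3.81% and 47.7% were. With MMS at 4 h the counts were 0, 0 and 2 at 80, 160 and 320 µM (1.6%, 13.5% and 28.6% of genes), and at 24 h 3, 6 and 7 (28.5%, 47.3% and 58.5%). With EMS no member was called at 4 h (0.143%, 1.06% and 9.6%), and 1, 5 and 8 were at 24 h at 1, 2 and 4 mM (24.3%, 34.6% and 51.5%). With colcemid no member was called at 4 h (0%, 0.0642% and 0.913%), and 4, 4 and 3 were at 24 h (37.3%, 37.7% and 36.4%). With vincristine none was called at 4 h (0%, 0.00713% and 0.25%), and 4, 2 and 3 were at 24 h (37.4%, 36.9% and 35.7%). Among the 30 values of each of these 4 h sets, an unadjusted p under 0.05 was found for 0 with EMS, 0 with colcemid and 1 with vincristine. Between neighbouring doses, 4 steps of a member were called at 4 h and 23 at 24 h. At 4 h they were POLB (0.26) and XRCC1 (0.30) from 50 to 100 µM FA, where 30.2% of genes were called, and MPG (0.20) and ALKBH1 (-0.46) from 100 to 200 µM, where 34.9% were. At 24 h 4 members were called from 100 to 200 µM FA (42.8% of genes), 6 from 80 to 160 µM MMS (30.3%), 7 from 160 to 320 µM MMS (40%) and 6 from 2 to 4 mM EMS (36.9%). With experiment as a block MPG (0.15) and LIG3 (-0.18) were also called from 50 to 100 µM FA at 4 h and XRCC1 (0.21) from 2 to 4 mM EMS at 24 h. The members' shares lay on both sides of those of all genes and are not read as particular to them.

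**Figure D2:**
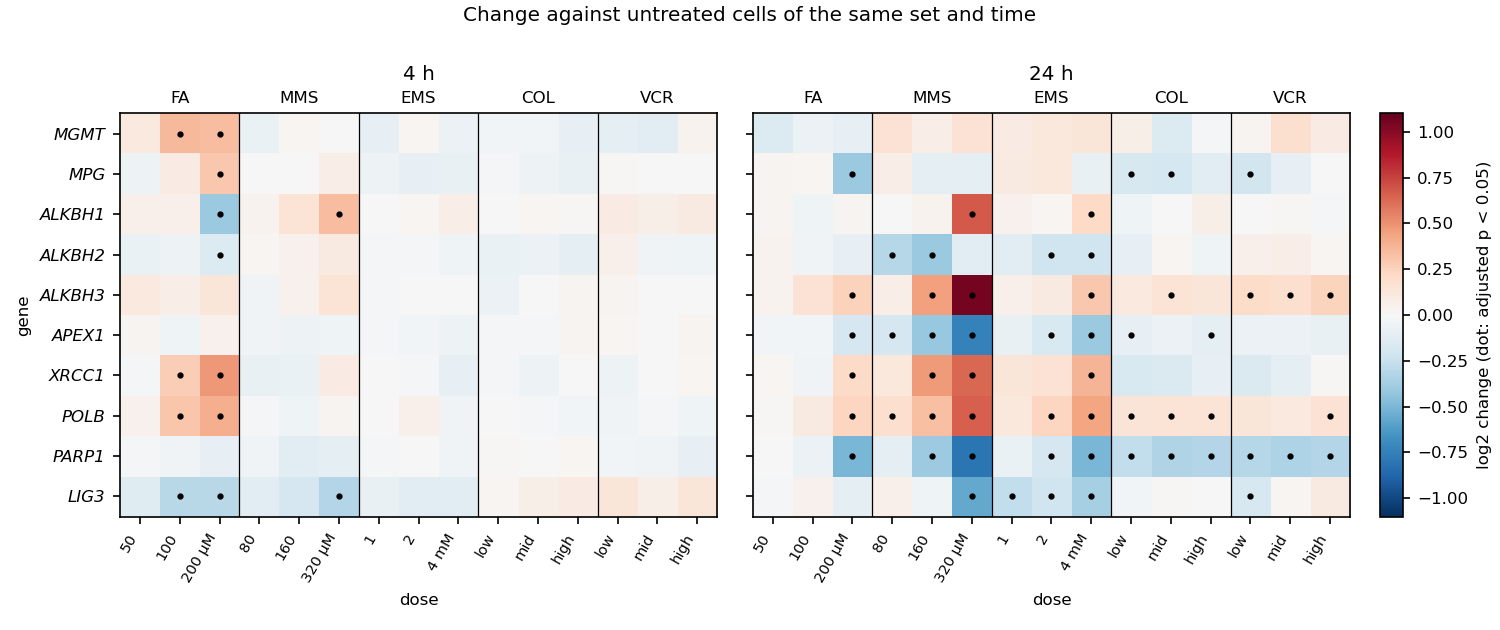
Log2 change of the 10 members against untreated arrays of the same set and time, in the 30 dose comparisons, with called values marked. The largest rise is that of ALKBH3 (1.05) and the deepest fall that of PARP1 (-0.81), both at 24 h of 320 µM MMS.

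Among the AlkB genes, ALKBH3, which repairs methylated bases in single-stranded DNA and in RNA, rose with MMS at 24 h. Its signals were 9.12, 9.38 and 9.04 on the untreated arrays, 9.59, 9.69 and 9.63 at 160 µM, and 10.22, 10.22 and 10.27 at 320 µM. The 3 groups did not overlap, and the levels followed the dose. The rise was 0.45 ± 0.07 (adjusted p = 1.63e-05) at 160 µM and 1.05 ± 0.07 (2.07-fold, adjusted p = 3.12e-11) at 320 µM, with a difference of 0.60 ± 0.07 between these doses. At 80 µM ALKBH3 was not called, and the step from 80 to 160 µM was 0.38 ± 0.07. With 4 mM EMS at 24 h the signals rose from 9.13, 9.20 and 9.19 to 9.46, 9.51 and 9.45, a change of 0.30 ± 0.05 (adjusted p = 1.46e-05). With 200 µM FA at 24 h the change was 0.25 ± 0.09 (adjusted p = 0.0263), and it was not called without experiment 1 (adjusted p = 0.15) or 2 (adjusted p = 0.064).

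ALKBH2, which repairs methylated bases in double-stranded DNA, was lower with MMS at the lower doses. At 24 h its signals were 8.96, 9.22 and 8.98 without treatment, 8.72, 8.75 and 8.76 at 80 µM, 8.69, 8.71 and 8.54 at 160 µM, and 8.96, 8.87 and 8.95 at 320 µM. The first 2 doses lay below the untreated arrays, whereas the highest overlapped them. The change was -0.31 ± 0.06 (adjusted p = 0.00044) and -0.41 ± 0.06 (adjusted p = 5.67e-06) at 80 and 160 µM, and -0.12 ± 0.06 (adjusted p = 0.0764) at 320 µM, which became -0.24 (adjusted p = 2.26e-05) after a repeated quantile normalization. From 160 to 320 µM ALKBH2 was higher by 0.29 ± 0.06, a called difference. EMS gave -0.22 ± 0.07 at both 2 and 4 mM, calls that were lost when an experiment was left out (adjusted p up to 0.12 and 0.13). The call with 200 µM FA at 4 h (-0.15 ± 0.06) had the same direction in 2 of 3 experiments and was lost without the untreated array of experiment 3 (adjusted p = 0.12).

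ALKBH1, an AlkB enzyme that acts on DNA and transfer RNA, moved in opposite directions with FA and MMS at 4 h. With 200 µM FA it fell from 8.97, 8.99 and 8.79 to 8.47, 8.58 and 8.48 (-0.41 ± 0.06, adjusted p = 1.3e-05). With 320 µM MMS it rose from 8.91, 8.96 and 8.89 to 9.16, 9.25 and 9.37 (0.34 ± 0.06, adjusted p = 0.000137). At 100 µM FA it was not called, and the step from 100 to 200 µM was -0.46 ± 0.06. At 24 h it rose by 0.67 ± 0.06 with 320 µM MMS (from 8.94, 8.86 and 8.78 to 9.59, 9.52 and 9.49) and by 0.22 ± 0.05 with 4 mM EMS, while 160 µM MMS gave 8.97, 8.93 and 8.79, within the untreated range but for 1 array. A dimmer second probe set of ALKBH1 gave 0.03 for FA and 0.47 for MMS at 4 h, and 0.69 for MMS and 0.49 for EMS at 24 h, so the fall with FA was seen on 1 of its 2 probe sets. With the mean of both the fall was -0.19 (adjusted p = 0.036).

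MPG, the glycosylase that removes methylated purines, changed with FA in a direction that depended on the time. At 4 h its signals rose from 9.13, 9.18 and 8.98 to 9.34, 9.49 and 9.34 with 200 µM (0.29 ± 0.07, adjusted p = 0.00165). At 24 h they fell from 8.95, 9.19 and 8.93 to 8.58, 8.67 and 8.60 (-0.41 ± 0.07, adjusted p = 5.53e-05). The groups did not overlap at either time, and the arrays at 100 µM (9.06, 9.07 and 9.001 at 24 h) stayed within the untreated range. MPG was not called with MMS or EMS against untreated cells, although the steps from 80 to 160 µM MMS (-0.17 ± 0.06) and from 2 to 4 mM EMS (-0.20 ± 0.07) at 24 h were called. After a repeated quantile normalization it was called lower at 24 h with 160 and 320 µM MMS (-0.18 and -0.22, against -0.11 at both) and with 4 mM EMS (-0.15, against -0.08).

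APEX1, the nuclease that cuts at sites left without a base, fell at 24 h with both alkylating agents. Its signals were 12.58, 12.65 and 12.54 without treatment, 12.24, 12.18 and 12.09 at 160 µM MMS and 11.87, 11.82 and 11.86 at 320 µM, in groups that did not overlap. The fall was -0.19 ± 0.05, -0.42 ± 0.05 and -0.74 ± 0.05 (1.67-fold, adjusted p = 5.72e-12) over the 3 doses, with called steps from each dose to the next above 80 µM. Without experiment 1 or 2 the call at 80 µM was lost (adjusted p = 0.09 and 0.068). With EMS the change was -0.17 ± 0.04 at 2 mM and -0.41 ± 0.04 (adjusted p = 6.21e-09) at 4 mM, from 12.62, 12.68 and 12.64 to 12.23, 12.27 and 12.21. At 1 mM it was -0.09, called only with experiment as a block (adjusted p = 0.0401, against 0.103). FA at 200 µM gave -0.19 ± 0.05 (adjusted p = 0.00353), and this call was lost without experiment 1 (adjusted p = 0.063). At 4 h of 100 µM FA the change was -0.05 and not called. Without the untreated array of experiment 3 it was -0.12 and called (adjusted p = 0.040).

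POLB, the polymerase that fills the gap, and XRCC1, the scaffold for the ligation step, rose with the alkylating agents at 24 h and with FA at 4 h. With MMS the POLB signals went from 9.62, 9.74 and 9.67 to 9.996, 10.04 and 9.99 at 160 µM and 10.28, 10.41 and 10.30 at 320 µM. The change was 0.19 ± 0.05, 0.33 ± 0.05 and 0.65 ± 0.05 (1.57-fold, adjusted p = 1.04e-10) over the doses, each group above the untreated arrays. With EMS it was 0.24 ± 0.06 at 2 mM and 0.43 ± 0.06 (adjusted p = 1.16e-06) at 4 mM. With FA at 4 h POLB rose from 9.44, 9.43 and 9.27 to 9.75, 9.65 and 9.64 at 100 µM and 9.78, 9.75 and 9.80 at 200 µM (0.30 ± 0.06 and 0.40 ± 0.06), and at 24 h by 0.24 ± 0.06 at 200 µM. Leaving out 1 experiment ended the calls at 80 µM MMS, 2 mM EMS and 24 h of 200 µM FA (adjusted p up to 0.12, 0.083 and 0.097). The other probe sets of POLB were dim, with means of 4.65 and 3.03, and gave -0.22 and -0.26 with 200 µM FA at 4 h. When the 3 were averaged, this change was -0.03 (adjusted p = 0.76), the direction of the dim ones, and that at 100 µM was 0.03 (adjusted p = 0.77). Averaging also ended the calls at 2 mM EMS (0.12, adjusted p = 0.096) and at 24 h of 200 µM FA (0.17, adjusted p = 0.054).

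XRCC1 rose with 320 µM MMS from 7.51, 7.76 and 7.55 to 8.30, 8.22 and 8.19 at 24 h (0.63 ± 0.10, adjusted p = 6.6e-06), and by 0.47 ± 0.10 at 160 µM. The arrays at these doses met at 8.19 and lay above the untreated ones, and the step between the doses was not called. With 4 mM EMS the signals were 8.39, 8.23 and 8.05, against 7.81, 7.96 and 7.79 (0.37 ± 0.09, adjusted p = 0.000975). With FA at 4 h XRCC1 rose from 8.14, 8.14 and 8.01 to 8.64, 8.52 and 8.57 at 200 µM (0.48 ± 0.08, adjusted p = 3.7e-05) and by 0.27 ± 0.08 at 100 µM, a call that was lost without experiment 1 or 3 (adjusted p = 0.15 and 0.13). At 24 h of 200 µM FA the change was 0.21 ± 0.08, with the same direction in 2 of 3 experiments and groups that overlapped. It was not called without experiment 1 or 3 (adjusted p = 0.22 and 0.33).

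PARP1, which binds strand breaks and builds poly(ADP-ribose) on nearby proteins, was called lower at 24 h with all 5 chemicals. With MMS its signals were 11.43, 11.41 and 11.40 without treatment, 11.08, 10.99 and 10.96 at 160 µM and 10.56, 10.65 and 10.60 at 320 µM. The untreated arrays lay close together and the treated ones well below them. The change was -0.40 ± 0.04 and -0.81 ± 0.04 (1.75-fold, adjusted p = 1.75e-13), and the steps from 80 to 160 µM (-0.31 ± 0.04) and on to 320 µM (-0.41 ± 0.04) were called. With EMS PARP1 changed by -0.18 ± 0.04 at 2 mM and by -0.50 ± 0.04 at 4 mM (from 11.36, 11.37 and 11.35 to 10.87, 10.88 and 10.84, adjusted p = 1.39e-10). With FA it fell at 200 µM from 11.497, 11.48 and 11.44 to 10.99, 11.02 and 10.91 (-0.50 ± 0.05, adjusted p = 1.24e-08), while 100 µM gave 11.43, 11.42 and 11.38. At 4 h no PARP1 change was called. With experiment as a block 160 µM MMS at 4 h was called (-0.12, adjusted p = 0.0429, against 0.0591). After a repeated quantile normalization, and with all arrays in 1 fit, 160 and 320 µM MMS and 200 µM FA at 4 h were called lower, by -0.09 to -0.12.

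**Figure D3:**
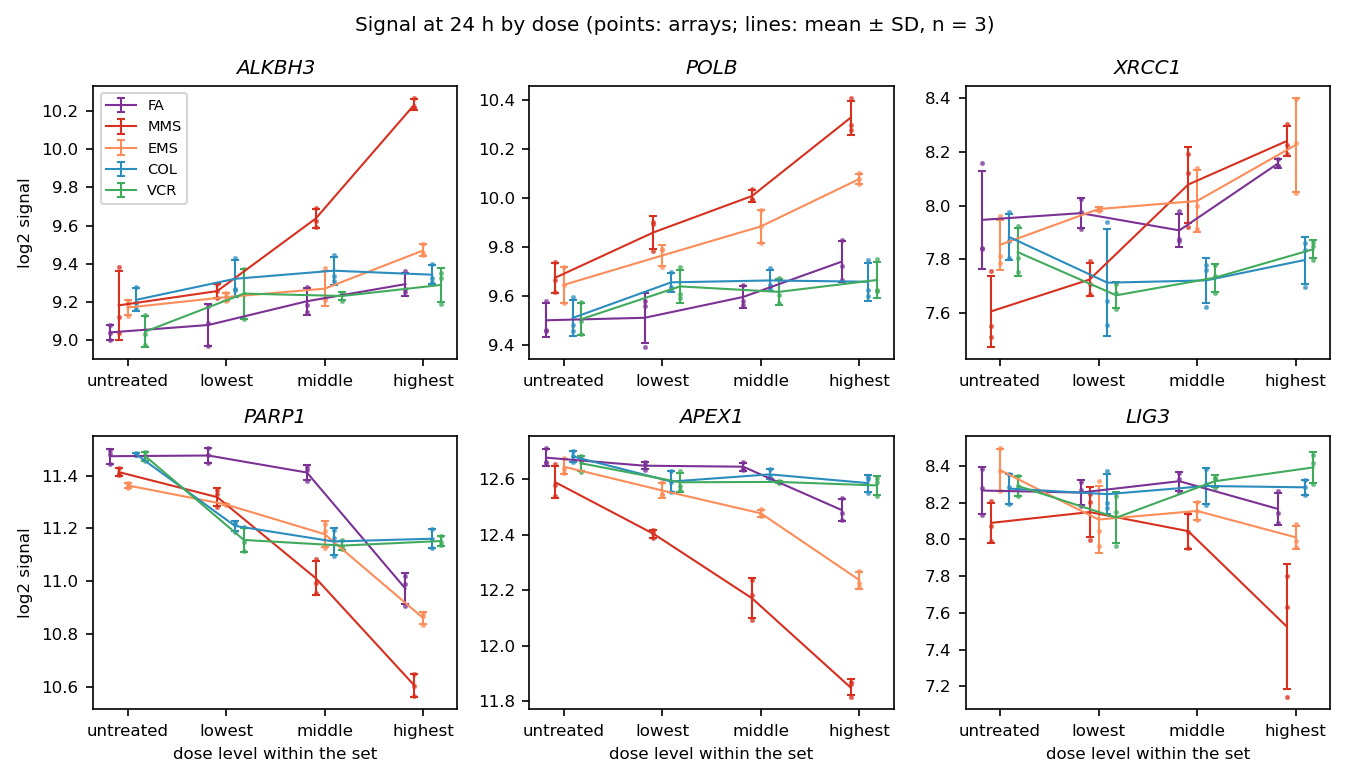
Log2 signal at 24 h of ALKBH3, POLB, XRCC1, PARP1, APEX1 and LIG3 by dose level in each chemical set, with 1 point per array and lines through the group means ± SD (n = 3). With MMS, ALKBH3 and POLB go up and PARP1 and APEX1 go down to the highest dose, and PARP1 at all 3 colcemid and vincristine doses lies below its untreated arrays.

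LIG3, the ligase that works with XRCC1, was read by 6 probe sets that differed in how much they moved. On the brightest, 229861_at, LIG3 fell at 24 h with 320 µM MMS from 8.07, 8.21 and 7.99 to 7.63, 7.14 and 7.80 (-0.56 ± 0.12, adjusted p = 0.000329), and with EMS by -0.27 ± 0.08, -0.22 ± 0.08 and -0.37 ± 0.08 at 1, 2 and 4 mM. At 4 h it fell with FA by -0.31 ± 0.07 at 100 µM and -0.30 ± 0.07 at 200 µM, from 8.67, 8.66 and 8.78 to 8.41, 8.46 and 8.33 at the latter. The change with 320 µM MMS at 4 h was -0.32 ± 0.12, a call that was lost without experiment 1 or 3 (adjusted p = 0.49 and 0.096). The calls at 1 and 2 mM EMS were lost without experiment 1 (adjusted p = 0.32 and 0.31), the first also without 3 and the second without 2 (adjusted p = 0.094 and 0.082).

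Of the other LIG3 probe sets, 4 gave larger falls at 24 h of 320 µM MMS. With p adjusted over all probe sets, 229861_at was called lower in 5 of 30 dose comparisons, 204123_at in 13, 1554599_x_at in 13, 1554597_at in 15, 207348_s_at in 6 and the dim 1555169_at (mean 4.68) in 0, and none was called higher. With 200 µM FA at 24 h the brightest probe set changed by -0.10 and was not called. There 204123_at changed by -0.84 ± 0.11, 1554599_x_at by -0.73 ± 0.10 and 1554597_at by -0.65 ± 0.09, all called. With the highest colcemid dose the brightest gave 0.01, whereas 1554599_x_at gave -0.81 ± 0.07 and 1554597_at -0.76 ± 0.06. With the highest vincristine dose it gave 0.10, whereas these gave -0.73 ± 0.09 and -0.81 ± 0.10. At 4 h of 200 µM FA, where the brightest gave -0.30, the others gave -0.19 to 0.14 and none was called. The fall of LIG3 at 24 h was larger, and found with more chemicals, on the other bright probe sets than on the one chosen by the rule. With the mean of the 6 probe sets LIG3 was called lower at 24 h of 200 µM FA (-0.51) and of the highest colcemid and vincristine doses (-0.34 and -0.33), and at 4 h of 200 µM FA it was -0.07 (adjusted p = 0.33). Which transcripts each reads was not tested.

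**Figure D4:**
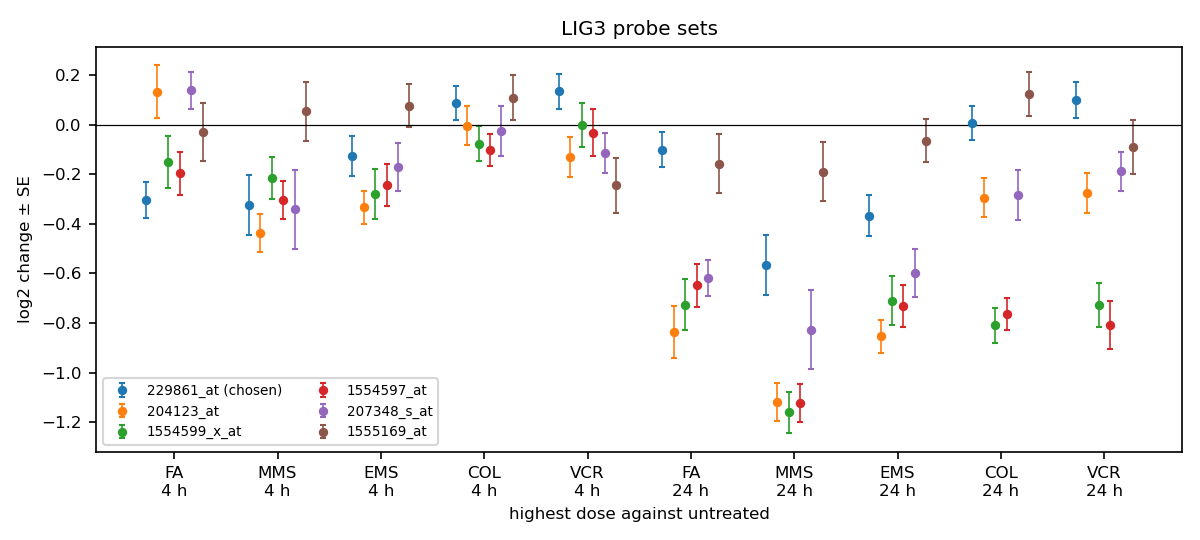
Log2 change ± SE of LIG3 on each of its 6 probe sets, at 4 h and 24 h of the highest dose of each chemical. At 24 h the chosen probe set, 229861_at, lies near 0 with colcemid (0.01) and vincristine (0.10), where 1554599_x_at and 1554597_at lie between -0.73 and -0.81.

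The methyl and the ethyl compound were given at doses that do not match, so their values stand side by side without a test. At the highest dose and 24 h, ALKBH3 changed by 1.05 with MMS and 0.30 with EMS, POLB by 0.65 and 0.43, XRCC1 by 0.63 and 0.37, and ALKBH1 by 0.67 and 0.22. In the same order PARP1 changed by -0.81 and -0.50, APEX1 by -0.74 and -0.41, LIG3 by -0.56 and -0.37, and ALKBH2 by -0.12 and -0.22. For 7 of the 10 members both changes were called and went the same way, and ALKBH2 was called with EMS alone. Of all tested genes 58.5% were called at this MMS dose and 51.5% at this EMS dose. The share of genes called the same way with both was not counted, so the 7 are not read as particular to the members. MPG and MGMT were called with neither at these doses. After the repeated quantile normalization described above, ALKBH2 and MPG were called with both and MGMT with MMS. The ACTB 3' minus 5' difference moved with these results. It was 1.06 ± 0.12 (SD), 1.28 ± 0.01 and 1.88 ± 0.26 at the 3 MMS doses at 24 h against 0.94 ± 0.08 without treatment, 0.66 ± 0.03 at 4 mM EMS against 0.52 ± 0.07, and 0.77 ± 0.07 at 200 µM FA against 0.48 ± 0.02. At 4 h of 200 µM FA it was 0.37 ± 0.03 against 0.44 ± 0.21. The part of RNA quality in the members' changes was not tested.

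With the tubulin drugs the changes at 24 h on the chosen probe sets were small and did not grow with the dose. Other probe sets of LIG3 fell more, as given above. PARP1 was called lower at all 6 labelled doses, by -0.27 to -0.33 with colcemid and -0.32 to -0.34 with vincristine. At the highest colcemid dose its signals were 11.20, 11.16 and 11.13 against 11.48, 11.48 and 11.49 (adjusted p = 1.32e-07), and at the highest vincristine dose 11.17, 11.14 and 11.15 against 11.46, 11.49 and 11.47 (adjusted p = 1.11e-06). POLB was called higher at the 3 colcemid doses (0.15 at each, SE 0.05) and the highest vincristine dose (0.16 ± 0.05). ALKBH3 was called higher at the 3 vincristine doses (0.20, 0.19 and 0.24, SE 0.07) and the middle colcemid dose (0.15 ± 0.06). MPG was called lower at the lowest and middle colcemid and the lowest vincristine dose (-0.18, -0.19 and -0.20), APEX1 at the lowest and highest colcemid dose (-0.09 and -0.10) and LIG3 at the lowest vincristine dose (-0.17). With the mean of probe sets no POLB call with either drug held (0.02 to 0.14, adjusted p from 0.14 to 0.88). No step between neighbouring doses of either drug was called for a member, where 0.207% and 6.87% of genes were called from the lowest to the middle and on to the highest colcemid dose, and 5.03% and 0% with vincristine. Apart from PARP1, each of these calls was lost when at least 1 experiment was left out. With experiment as a block 16 values were called with colcemid and 12 with vincristine in place of 11 and 9. The added calls were ALKBH3 at the lowest and highest colcemid dose (0.11 and 0.13), MPG at the highest (-0.12), XRCC1 at the lowest dose of colcemid and of vincristine (-0.17 and -0.16) and POLB at the lowest and middle vincristine dose (0.13 and 0.11), besides MGMT above. The step of LIG3 from the lowest to the middle vincristine dose (0.20, adjusted p = 0.026) was added too. With the mean of probe sets LIG3 was also called lower at the 3 colcemid doses (-0.22, -0.23 and -0.34). It was called lower at the middle and highest vincristine dose as well (-0.36 and -0.33). That mean also added ALKBH1 at the lowest colcemid and the middle vincristine dose (-0.18 at both).

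Whether the changes differed between classes was tested in 1 fit over all arrays, as the mean highest-dose change of MMS and EMS (the clastogens, which break chromosomes) against that of colcemid and vincristine (the aneugens), and of FA against each. Doses were not matched between the chemicals, so class and dose cannot be told apart in these comparisons. The ACTB 3' minus 5' difference at 24 h of the highest dose also differed between the classes. Against untreated arrays it changed by 0.94 with MMS, 0.14 with EMS, 0.29 with FA, -0.03 with colcemid and 0.04 with vincristine. Its part was not tested. At 24 h the clastogens and aneugens differed for 8 of 10 members, where 54.1% of genes did. XRCC1 (0.54 ± 0.08), ALKBH3 (0.49 ± 0.07), ALKBH1 (0.42 ± 0.05) and POLB (0.39 ± 0.05) were higher with the clastogens, and LIG3 (-0.52 ± 0.08), APEX1 (-0.49 ± 0.04, adjusted p = 5.29e-22), PARP1 (-0.34 ± 0.03) and ALKBH2 (-0.16 ± 0.06) were lower. These are means over 2 chemicals. For each of the 8 except ALKBH2, the change given above was larger in size with MMS than with EMS. The ALKBH3 change with EMS lay near that with the highest vincristine dose. The ALKBH2 difference was lost without experiment 1 or 2 (adjusted p = 0.062 and 0.26). At 4 h 2 members differed, where 22.6% of genes did: ALKBH1 (0.15 ± 0.05), which was lost without any 1 experiment (adjusted p = 0.059 to 0.15), and LIG3 (-0.34 ± 0.09), lost without experiment 3 (adjusted p = 0.063). The block for experiment added APEX1 (-0.08, adjusted p = 0.028).

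FA differed from the clastogens at 4 h for 6 members (49.5% of genes) and from the aneugens for 6 (50.6%). Against the clastogens XRCC1 (0.48 ± 0.10), POLB (0.40 ± 0.06), MGMT (0.37 ± 0.12), MPG (0.30 ± 0.09) and APEX1 (0.10 ± 0.04) were higher with FA and ALKBH1 was lower (-0.61 ± 0.06, adjusted p = 9.15e-15). APEX1 kept its call in only 2 of 8 alternative runs, and without the untreated array of experiment 3 it was 0.03 (adjusted p = 0.55). MGMT was not called without experiment 1 or 2 (adjusted p = 0.16 and 0.055). Against the aneugens XRCC1 (0.47 ± 0.10), POLB (0.44 ± 0.06), MGMT (0.37 ± 0.12) and MPG (0.33 ± 0.09) were higher with FA, and ALKBH1 (-0.46 ± 0.06) and LIG3 (-0.41 ± 0.10) were lower. There MGMT was lost without experiment 1 (adjusted p = 0.11) and LIG3 without experiment 3 (adjusted p = 0.079), and with the mean of probe sets LIG3 was -0.03 (adjusted p = 0.65). In the blocked fit ALKBH2 was also lower with FA than with the clastogens (-0.18, adjusted p = 0.022). With the mean of probe sets POLB turned to -0.07 (adjusted p = 0.5) against the clastogens and was 0.06 (adjusted p = 0.59) against the aneugens. At 24 h FA differed from the clastogens for 8 members (37.3% of genes). ALKBH3 (-0.42 ± 0.09), ALKBH1 (-0.42 ± 0.06), MPG (-0.31 ± 0.09), POLB (-0.30 ± 0.06) and XRCC1 (-0.29 ± 0.10) were lower with FA, and APEX1 (0.39 ± 0.04), LIG3 (0.37 ± 0.10) and PARP1 (0.15 ± 0.04) were higher. From the aneugens FA differed at 24 h for MPG (-0.35 ± 0.09) and PARP1 (-0.18 ± 0.04), 2 of 10 members where 39.9% of genes did. The block added APEX1 (-0.10, adjusted p = 0.016) and XRCC1 (0.25, adjusted p = 0.025, against 0.0503), and the mean of probe sets added LIG3 (-0.18, adjusted p = 0.015). The calls at 24 h against the clastogens were lost for MPG without experiment 1 (adjusted p = 0.15), and for XRCC1 and LIG3 without experiment 1 or 2 (adjusted p from 0.11 to 0.2). The comparisons share arrays, so they are not independent of each other.

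The change at the highest dose differed between 24 h and 4 h for 5 members with FA, 7 with MMS, 5 with EMS and 1 each with colcemid and vincristine. Over all genes the shares were 53.3%, 45.2%, 38.3%, 22.5% and 22.4%. Without the untreated 4 h FA array of experiment 3, ALKBH3 was added with FA (0.28, adjusted p = 0.011, against 0.12 and 0.46). With the tubulin drugs the member was PARP1 (-0.34 ± 0.05 with colcemid and -0.24 ± 0.06 with vincristine). When experiment was a block, POLB (0.18, adjusted p = 0.011) and APEX1 (-0.12, adjusted p = 0.019) were added with colcemid, and POLB (0.21, adjusted p = 0.0068) and ALKBH3 (0.24, adjusted p = 0.028) with vincristine. With the mean of its 6 probe sets the LIG3 difference was called with all 5 chemicals. It was -0.45 with FA, -0.57 with MMS, -0.37 with EMS, -0.34 with colcemid and -0.27 with vincristine (adjusted p up to 0.0062). On the chosen probe set LIG3 was called with none, at 0.20, -0.24, -0.24, -0.08 and -0.03 in the same order.

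Time in culture also moved the members in untreated cells. Between 4 h and 24 h, 4, 5, 5, 5 and 4 members were called in the FA, MMS, EMS, colcemid and vincristine sets, where 29.5%, 32.2%, 29.9%, 35% and 32.9% of genes were. PARP1 was higher at 24 h in all 5 sets, by 0.15 to 0.22, and LIG3 lower in all 5, by -0.22 to -0.60. ALKBH3 was lower in the MMS, EMS, colcemid and vincristine sets (-0.24, -0.16, -0.24 and -0.31), ALKBH2 and XRCC1 in the MMS set (-0.33 and -0.30) and the EMS set (-0.29 and -0.26). ALKBH1 was higher in the FA (0.25), colcemid (0.14) and vincristine (0.25) sets, MGMT in the FA set (0.29 ± 0.10) and APEX1 in the colcemid set (0.11). The 23 calls became 9 without experiment 1. Blocking on experiment added 6: ALKBH2 (-0.16) and APEX1 (0.13) in the FA set, POLB (0.11) in the colcemid set, and APEX1 (0.10), POLB (0.14) and XRCC1 (-0.17) in the vincristine set.

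The rest of the pathway was read from 4 lists at the highest dose of each chemical. Of 10 genes of long-patch synthesis, which replaces several bases with the sliding clamp PCNA, its loader RFC and polymerase delta, 8 were called higher and 1 lower at 24 h of 320 µM MMS, with a median change of 0.41 against -0.04 over all tested genes. RFC1 (1.14), RFC2 (1.02) and POLD3 (0.88) rose most and POLD2 (-0.44) fell. With 4 mM EMS 7 were higher and 2 lower (median 0.28), again led by RFC1 (0.66) and POLD3 (0.58). With colcemid 8 were lower and none higher (median -0.38) and with vincristine 8 and none (median -0.31), among them POLD3 (-0.47 and -0.61), POLD1 (-0.48 and -0.48) and RFC5 (-0.48 and -0.42). FA gave 5 higher and 3 lower at 4 h and 2 of each at 24 h, with RFC1 at -0.32 and then 0.41. At 4 h 6 were higher with MMS and 4 with EMS and none lower, RFC5 at 0.31 and 0.25 among them. The background shares called higher and lower were 30.8% and 27.7% for MMS, 27.8% and 23.6% for EMS, 18% and 18.3% for colcemid and 17.5% and 18.2% for vincristine at 24 h. For FA they were 29.6% and 24.2% at 4 h and 23.8% and 23.9% at 24 h, and at 4 h 15.3% and 13.4% for MMS and 5.55% and 4.05% for EMS. The RNA quality values given above moved with these counts too, and their part was not tested.

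Of 11 tested genes of end processing, PARP activity and ligation, 7 were higher and 1 lower with MMS at 24 h, and 6 and 2 with EMS. The median change was 0.25 and 0.16. Among all genes 30.8% were called higher and 27.7% lower with MMS, and 27.8% and 23.6% with EMS. Shares for the other comparisons are given with long-patch synthesis. LIG1, the replicative ligase (0.79 and 0.67), and PARP2, another PARP that senses damage (0.74 and 0.21), rose, whereas TDP1, which clears protein from DNA ends, fell (-0.80 and -0.68). TDP1 was also lower with FA at 24 h (-0.94) and at 4 h with FA, MMS and EMS (-0.24, -0.52 and -0.23). With colcemid and vincristine 7 of the 11 were lower and none higher in each case, with APEX2 at -0.57 and -0.75 and PARP2 at -0.53 and -0.55. FA gave 4 higher and 2 lower at 4 h, and 2 and 3 at 24 h. At 4 h MMS gave 6 and 1, and EMS 1 and 1. NEIL1, a glycosylase, had no probe set of its own, and APLF lay below the limit.

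The other DNA glycosylases were divided. Their median change at 24 h was 0.20 with MMS and -0.15 with EMS. Of all genes 30.8% were called higher and 27.7% lower with MMS, and 27.8% and 23.6% with EMS. Shares for the other comparisons are given with long-patch synthesis. Of 9 tested, 4 were higher and 3 lower with MMS at 24 h and 4 and 5 with EMS. NEIL3, which removes oxidized bases and unhooks crosslinks, changed by 1.21 and 0.63, MUTYH by 0.64 and 0.47, and NTHL1 by -0.90 and -0.75. With colcemid 5 were lower and with vincristine 4, none higher, with NEIL3 at -0.62 and -0.46 and OGG1, the glycosylase for oxidized guanine, at -0.52 and -0.65. With FA 6 were higher and 2 lower at 4 h, where TDG, which acts on mispaired thymine, fell by 1.17 and NEIL3 by 0.63 on the log2 scale, and 1 and 3 at 24 h. At 4 h MMS gave 3 higher and 2 lower, with OGG1 at 0.80, and EMS 1 and 0. With experiment as a block the EMS count at 4 h was 3 higher and 1 lower, and colcemid and vincristine gave 6 lower each at 24 h.

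Of 9 other AlkB genes and partners of ALKBH3, 5 were higher and 2 lower with MMS at 24 h. The counts were 4 and 3 with EMS and 4 and 3 with FA. Median changes were 0.27, -0.08 and -0.04 in that order. Among all genes the shares called higher and lower were 30.8% and 27.7%, 27.8% and 23.6%, and 23.8% and 23.9%. Shares for the other comparisons are given with long-patch synthesis. ASCC1, ASCC2 and ASCC3, which form the helicase complex that works with ALKBH3, were called higher with all 3 of these chemicals at 24 h: ASCC3 by 0.73 with MMS, 0.41 with EMS and 0.47 with FA, and ASCC2 by 0.69, 0.38 and 0.55. At 4 h ASCC3 was lower with MMS (-0.49) and EMS (-0.20). ALKBH6 rose at 24 h by 1.09 with MMS and 0.57 with EMS, ALKBH5, an RNA demethylase, fell with all 5 chemicals (-0.66 with FA, -0.69 with MMS), and FTO fell with FA (-1.01). The counts at 4 h were 3 higher and 2 lower with FA, 1 and 3 with MMS and 0 and 1 with EMS. With colcemid 1 was lower and with vincristine 2, none higher. No gene of the 4 lists was called at 4 h of the highest colcemid or vincristine dose, with or without experiment as a block. For the AlkB genes and partners the block gave 1 higher and 2 lower at 24 h with colcemid and with vincristine, and 2 higher at 4 h with MMS. In long-patch synthesis the block gave 1 higher with colcemid, and 8 higher at 24 h and 5 at 4 h with EMS.

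**Figure D5:**
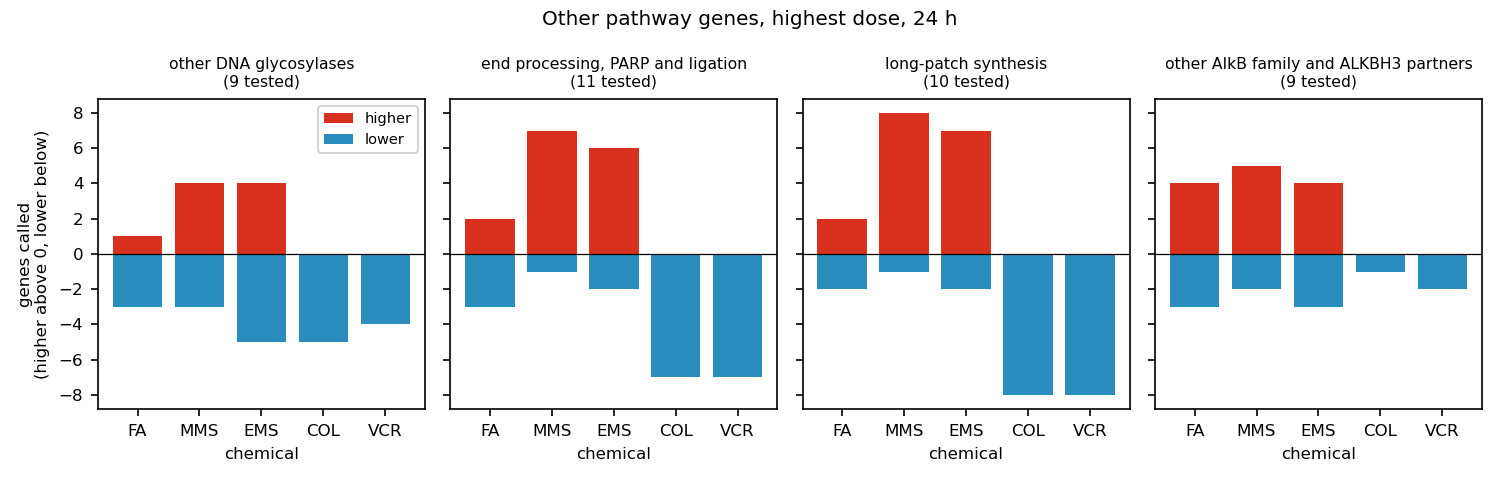
Number of genes of the 4 pathway lists called higher (bars above 0) and lower (bars below 0) by limma at 24 h of the highest dose of each chemical. In long-patch synthesis 8 of 10 are higher with MMS and 7 with EMS, and 8 are lower with colcemid and with vincristine.

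The members' changes over the 90 treated arrays, each minus the untreated mean of its set and time, are described by Pearson's r without a test, since arrays share untreated means, doses and experiments. ALKBH3 and POLB had r = 0.80, POLB and XRCC1 0.77, and APEX1 and PARP1 0.82, while ALKBH3 and PARP1 had -0.83 and APEX1 and POLB -0.74. For the members called most often, the tested genes with the highest r were GABARAPL2 (0.92), ZNF81 (0.91) and APBA3 (0.91) for POLB, and PFAS (0.95), DAZAP1 (0.95) and MZB1 (0.95) for PARP1.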

How the data were processed

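Total RNA of 120 TK6 cultures was labelled with biotin by a one-cycle protocol and hybridized to Affymetrix arrays, per the labels. What the authors deposited is 1 log2 value per probe set and array, computed by RMA (per the submitters' processing notes). The RMA version and the set of arrays normalized with each other are not given in the sources used here. Groups and experiment numbers come from the labels, and nothing further says how the cultures were kept apart, so p-values measure the spread between these experiments.

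Of 54675 probe sets, 62 were controls and 41091 named 1 gene symbol in the platform's annotation list, 1801 several and 11721 none. Each gene was read by its single-symbol probe set with the highest mean. Testing required a signal of 6.18 or more (the median of the probe sets' means) on 3 or more arrays. Linear models were fitted in limma 3.58.1 (R 4.3.3; package data.table at version 1.17.8), 1 fit per chemical set of 24 arrays without a block, and 1 fit of 120 arrays for the classes. Two-sided moderated tests were adjusted by Benjamini and Hochberg over the 14023 tested genes within each of 30 dose, 20 neighbouring-dose, 5 time, 5 untreated and 6 class comparisons, with calls made below an adjusted p of 0.05. SE is that of the fitted change. The fit of 320 µM MMS at 4 h was tested on simulated data. Plots and summaries used python 3.11.15 with pandas 2.3.3 and matplotlib 3.10.9.

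The named genes are the 10 members, the 3 genes most like each of the 2 members called most often, up to 4 called genes of a list in a comparison, and CDKN1A. ASCC1 was named in addition, after its values were seen. The members and lists were chosen with earlier results of these data known. Experiment numbers were taken to pair arrays, as the labels share them, for the counts of direction and for the block. The main fits did not use this pairing. As a check, same-numbered arrays deviated together (mean correlation of their deviations above 0) in 29 of 30 dose comparisons, with a median of 0.285, and in 19 each pair exceeded 0.1. The exception was 320 µM MMS at 24 h (-0.13). Alternatives tried were a block for experiment, no filter, the mean of probe sets, leaving out each experiment, a single fit of all arrays, quantile normalization repeated, the doubted untreated FA array left out, and GAPDH in place of ACTB.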

Additional observations from a re-analysis of the deposited data

Results flagged for a closer look

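The change at the highest dose differed between 24 h and 4 h for 19 of the 50 member values, by a limma test of the difference itself (24 h change minus 4 h change, log2). Over all tested genes 53.3% differed with FA, 45.2% with MMS, 38.3% with EMS, 22.5% with colcemid and 22.4% with vincristine. With FA, MPG turned from higher to lower, a difference of -0.70 (SE 0.10, adjusted p = 5.11e-06), and PARP1 (-0.41), APEX1 (-0.24) and MGMT (-0.43) also had lower changes at 24 h. ALKBH1 had a higher one (0.44, SE 0.09), with changes of -0.41 at 4 h and 0.03 at 24 h, but with the mean of its probe sets the difference was 0.075 (adjusted p = 0.56). With MMS the difference was 0.90 for ALKBH3, 0.62 for POLB, 0.54 for XRCC1 and 0.33 for ALKBH1, and -0.71 for PARP1, -0.69 for APEX1 and -0.22 for ALKBH2. With EMS it was 0.47 for POLB, 0.46 for XRCC1, 0.30 for ALKBH3, -0.46 for PARP1 and -0.35 for APEX1. With colcemid and vincristine 1 member each was called, PARP1, at -0.34 (SE 0.05) and -0.24 (SE 0.06). The calls that experiment as a block added, and those of LIG3 with the mean of probe sets, are given with the results.

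Of the 19 differences, 10 held under every alternative run. The difference of ALKBH1 with FA was not called with the mean of probe sets. Without experiment 1 those of MGMT (adjusted p = 0.25) and APEX1 with FA, ALKBH2 with MMS, ALKBH3 and XRCC1 with EMS and PARP1 with vincristine were not called. ALKBH1 with MMS was not called without experiment 2 (adjusted p = 0.056), nor XRCC1 with MMS without experiment 3 (adjusted p = 0.064), and ALKBH2 with MMS was not called without any 1 experiment or without the filter. The untreated arrays of both times enter each difference, and PARP1 and LIG3 differed between those times in all 5 sets.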

How the results depend on the processing

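Directions held for all but 2 of the called dose, time and class values under the alternatives run: the 2 are POLB with 200 µM FA at 4 h (-0.027) and POLB with FA against the clastogens at 4 h (-0.074), both with the mean of probe sets, which averages in 2 dim probe sets. Of 69 dose calls 36 held under every alternative, and of 32 class calls 20. The number of calls with 4 h of MMS (2) was 1 without the filter, 5 when all arrays were fitted together and 4 after a repeated quantile normalization. EMS at 4 h gave 1 with the mean of probe sets, colcemid at 24 h 6 without the filter (11 otherwise), neighbouring doses at 4 h 8 when fitted together (4 otherwise), and times 29 after the repeated normalization (19 otherwise). With 1 experiment left out, counts were 8 to 10 and 3 to 5 for FA at 4 h and 24 h, 1 to 3 and 14 to 16 for MMS, 10 to 11 for EMS at 24 h, 4 to 6 for colcemid and 3 to 5 for vincristine at 24 h. They were 2 to 4 and 14 to 19 for neighbouring doses at 4 h and 24 h, 13 to 16 for times, 9 to 20 for untreated times, and 10 to 11 and 14 to 19 for classes. Leaving out experiment 1 ended 27 of the 69 dose calls, experiment 2 ended 17 and experiment 3 ended 20; these fits have fewer arrays. The replicate block ended no dose, time or class call and gave 11 and 16 calls for FA at 4 h and MMS at 24 h, and the calls it added to the members are given beside the results. Values called only under an alternative numbered 37 after a repeated quantile normalization, 22 with the mean of probe sets, 18 with the block and 8 with all arrays fitted together. Without the doubted untreated FA array 10 of the 11 FA calls at 4 h held. With GAPDH in place of ACTB the 3' minus 5' difference at 320 µM MMS and 24 h was 0.340 against 0.222. MGMT lay near the limit for dim genes, and signal over background was not measured. SEs of 0.032 to 0.12 limit what can be called, and small changes with the tubulin drugs lie near that limit.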
